A study of Mus musculus with 137 samples.

Results

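The immunoglobulin variable segments are the germline V genes of the antibody loci, Igh for heavy chains, Igk for kappa light chains and Igl for lambda light chains. Their probes were taken by gene symbol alone, as every probe whose symbol starts with Ighv, Igkv or Iglv followed by a digit, and a probe was kept when its counts over all libraries came to at least 1 per library on average. Of 210 such probes for 183 symbols, 183 probes for 164 symbols were kept, out of 30146 probes for 21450 genes in the whole count table. The members were 91 heavy chain, 89 kappa and 3 lambda probes. The minimum left out 27 probes, 1 of them at 0 in every library, and 19 symbols lost all their probes. The members just inside it were Ighv2-6-8 with 140 and Igkv20-101-2 with 150 counts, and those just outside were Igkv7-33 with 136 and Ighv1-74 with 122.

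The libraries came from the duodenum of female wildtype B6C3F1 mice whose drinking water held Cr(VI), added as sodium dichromate dihydrate, at 0.1, 1.4, 5, 20, 60 or 180 ppm for 7 or 90 days, and from untreated mice (0 ppm) given tap water for the same times. RNA was measured by TempO-Seq, in which pairs of detector oligos hybridise to an RNA, are ligated on it, amplified and counted, and it was applied to material scraped from formalin-fixed, paraffin-embedded cross-sections. The crypt region was kept from one section and the villus region from the adjacent section of the same mouse. There were 71 crypt and 66 villus libraries from 71 mice, 66 of which had both compartments, and the 28 groups of compartment, dose and time held 4 to 6 libraries each, every library from a separate mouse within its group. No age is given, and mice exposed for 90 days were older at the end than those exposed for 7 days, so age and exposure time cannot be told apart.

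An antibody gene is assembled in each developing B cell by joining one of many V segments to short D and J segments in the heavy chain, or to a J segment in the light chain. All descendants of that B cell then transcribe the same V segment ahead of a constant region such as Cμ, Cα or Cκ. The small intestinal lamina propria is rich in plasma cells that secrete dimeric IgA, joined by the J chain (Jchain) and carried across the epithelium by the polymeric immunoglobulin receptor (Pigr). V segment RNA in a gut section therefore comes mostly from plasma cells, with smaller amounts from B cells in lymphoid tissue, and a single expanded clone raises its own heavy and light segments. In sections of this kind, fewer cells of a type and less RNA per cell cannot be told apart.

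All 164 symbols were found in the mouse annotation (GENCODE M21, build GRCm38), 163 as functional V genes and 1 as a V pseudogene. The heavy chain segments lie on chromosome 12, the kappa segments on chromosome 6 and the lambda segments on chromosome 16. The sequences of neighbouring V genes are close. Of the 164 segments, 126 shared a stretch of 50 bases with another member, the length of a read, and 78 had a partner with at least 95% identity over the aligned gene sequence. B6C3F1 mice carry a C57BL/6 and a C3H copy of each locus, whereas the reference is C57BL/6. Probe sequences were not used here, so which of several near-identical segments a probe measured is uncertain throughout.

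3 pairs of segments whose probes moved together across the libraries are shown here, because their sequences show how little separates them. Each sequence comes from the second of 2 exons, which holds the end of the leader and then the V region. It is printed whole for the kappa segments and as the first 300 of 305 bases for the heavy chain pair. Bases run 5′ to 3′ on the minus strand of GRCm38, in lower case, with those that differ within the pair in capitals. Ighv1-80 lies at chr12:115912349-115912648 and Ighv1-82 at chr12:115952543-115952842. They differ at 12 of 300 bases, and the longest run they share is 59 bases. Igkv6-13 at chr6:70457501-70457798 and Igkv6-23 at chr6:70260409-70260706 differ at 12 of 298 bases, with a longest shared run of 61 bases. Igkv12-44 at chr6:69814631-69814928 and Igkv12-46 at chr6:69764523-69764820 differ at 16 of 298 bases, with a longest shared run of 55 bases.
Ighv1-80: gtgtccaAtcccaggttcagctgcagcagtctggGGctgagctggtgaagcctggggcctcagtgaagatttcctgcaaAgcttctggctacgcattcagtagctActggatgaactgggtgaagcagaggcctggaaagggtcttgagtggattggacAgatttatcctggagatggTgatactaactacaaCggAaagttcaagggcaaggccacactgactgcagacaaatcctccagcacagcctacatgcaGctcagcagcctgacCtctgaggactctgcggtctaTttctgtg
Ighv1-82: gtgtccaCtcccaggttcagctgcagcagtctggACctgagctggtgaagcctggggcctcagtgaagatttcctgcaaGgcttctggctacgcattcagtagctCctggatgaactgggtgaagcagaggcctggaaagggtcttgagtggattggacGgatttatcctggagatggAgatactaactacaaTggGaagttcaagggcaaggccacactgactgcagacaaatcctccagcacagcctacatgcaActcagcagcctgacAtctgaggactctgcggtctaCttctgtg
Igkv6-13: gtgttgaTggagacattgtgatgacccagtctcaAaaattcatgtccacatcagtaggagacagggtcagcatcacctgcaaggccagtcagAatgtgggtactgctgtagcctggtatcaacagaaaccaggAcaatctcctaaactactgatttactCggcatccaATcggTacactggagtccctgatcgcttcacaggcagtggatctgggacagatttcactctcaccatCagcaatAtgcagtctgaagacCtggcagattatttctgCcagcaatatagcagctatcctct
Igkv6-23: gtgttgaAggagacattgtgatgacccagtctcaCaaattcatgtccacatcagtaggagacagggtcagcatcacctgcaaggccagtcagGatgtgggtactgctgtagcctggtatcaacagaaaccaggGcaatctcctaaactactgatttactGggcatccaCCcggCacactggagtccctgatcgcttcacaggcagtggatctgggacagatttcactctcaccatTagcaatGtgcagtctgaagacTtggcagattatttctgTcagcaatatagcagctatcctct
Igkv12-44: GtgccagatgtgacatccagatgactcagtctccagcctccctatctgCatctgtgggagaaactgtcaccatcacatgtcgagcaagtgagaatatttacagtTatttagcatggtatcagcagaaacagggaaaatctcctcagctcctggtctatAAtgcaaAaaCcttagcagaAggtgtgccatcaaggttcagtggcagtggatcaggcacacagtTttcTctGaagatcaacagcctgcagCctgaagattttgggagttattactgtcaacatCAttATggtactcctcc
Igkv12-46: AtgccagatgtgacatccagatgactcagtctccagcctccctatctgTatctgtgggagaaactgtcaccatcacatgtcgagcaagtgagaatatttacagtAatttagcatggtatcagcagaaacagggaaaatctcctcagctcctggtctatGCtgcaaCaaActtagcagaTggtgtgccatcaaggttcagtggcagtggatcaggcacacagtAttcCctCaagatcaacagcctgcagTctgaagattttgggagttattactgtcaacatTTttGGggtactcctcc

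Library totals ran from 1463938 to 7199801 counts with a median of 3592983, and levels are given as CPM, counts scaled to the same total in every library, on which counting error is small for the abundant segments. Compartment markers followed the labels in all but 2 mice. The summed level of 7 enterocyte markers was 7343 to 55097 CPM in the other crypts and 24613 to 136296 CPM in the other villi, and that of 5 Paneth cell markers was 5876 to 32826 CPM and 193 to 9835 CPM. The library labelled crypt of mouse 49 had 66012 CPM of enterocyte and 2346 CPM of Paneth cell markers, and the library labelled villus of mouse 48 had 41306 and 20614 CPM. Both mice were untreated for 7 days, and results that rest on them are given with and without them. A list of 12 measured B cell genes, among them Ms4a1 and Pax5, summed to more than 300 CPM in 24 libraries from 13 mice, all of them exposed for 7 days, and reached 5645 CPM in the crypt of mouse 289 (5 ppm). The other 113 libraries held 25.7 to 196 CPM of that list. The 10 measured pancreatic acinar genes ranged from 6.79 CPM to 133832 CPM, the highest in the villus of mouse 84 (0.1 ppm, 90 days). Counts without the 24 B cell-rich libraries are given beside the results they change, an alternative chosen after seeing the data. Where the share of all probes called in a reduced set of libraries is not given, the member count cannot be set against it.

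The members together took 1370 to 17061 CPM of a library, with a median of 8155 CPM, and 72 to 156 of the 183 probes had counts in a library. By counts over all libraries, kappa segments took 62.7%, heavy chain segments 36.6% and lambda segments 0.69%. Counts of different probes are shares of sequenced product and not amounts of RNA, since ligation and amplification differ between probes. The heavy chain share of a library was 20.9% to 53.4% with a median of 36.8%. The family with the largest share was Ighv1 with 26.3% of counts, followed by Igkv8 (12%), Igkv6 (10%), Igkv3 (8.19%) and Igkv12 (7.35%).

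The most counted member was Igkv8-30 (chr6:70117061-70117620), with 30.2 CPM in its lowest, 414 CPM in its median and 1110 CPM in its highest library. Igkv3-12 (chr6:70518250-70518849) ranged from 10.1 CPM to 1485 CPM with a median of 285 CPM. Among heavy chain segments Ighv1-18 (chr12:114682632-114683065) led, from 28.2 CPM to 1263 CPM with a median of 303 CPM. The next were Igkv6-13, Igkv6-23, Ighv1-82, Ighv1-42, Ighv1-80, Igkv1-117 and Ighv1-31. No single segment dominated. The leading member of a library took 4.57% to 20.0% of its V segment CPM, with a median of 7.64%, and 19 different members led at least 1 library. Igkv8-30 led in 36 libraries, Igkv3-12 in 16, Ighv1-18 and Ighv1-82 in 14 each, Ighv1-42 in 12 and Igkv6-23 in 11. The effective number of segments, the inverse of the sum of the squared shares, was 16.6 to 50.2 with a median of 34.2. Its lowest value and the highest leading share fell in the same library, the crypt of mouse 46 (untreated, 7 days), where Ighv1-42 took 20.0%. Ighv1-42 also led in the villus of that mouse, with 13.6%.

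Single V segments varied more between mice of one group than most abundant probes did. Over the 37 members with a median above 50 CPM, the standard deviation of log2 CPM within groups was 0.66 at the lowest, 0.99 at the median and 2.01 at the highest. Over all 3717 probes with a median above 50 CPM the median was 0.42, and 25 of the 37 members (67.6%) lay above the 95th percentile of those probes, 0.851. The 6 constant region probes at that level had a median of 0.94. T cell receptor variable segments gave no comparison, since none of their probes had a median above 10 CPM.

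Crypt and villus libraries of one mouse shared their V segment profile. For each of the 66 mice, the log2 CPM of the 183 members, less the mean of the library's group, was compared between its crypt and its villus. The Pearson correlation over members was 0.01 to 0.64 with a median of 0.39, and above 0 in 66 of 66 mice. Crypts compared with villi of other mice in the same dose and time gave -0.29 to 0.20 over 248 pairs, with a median of -0.10, and taking group means away pulls such pairs below 0. Members are not independent of each other, so these correlations are descriptions. Within its own dose and time, the villus most like a crypt was that of the same mouse in 64 of 66 mice, and the crypt most like a villus in 64 of 66. Without mice 48 and 49 both counts were 64 of 64, and without mice with B cell-rich libraries 53 of 54.

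**Figure D1:**
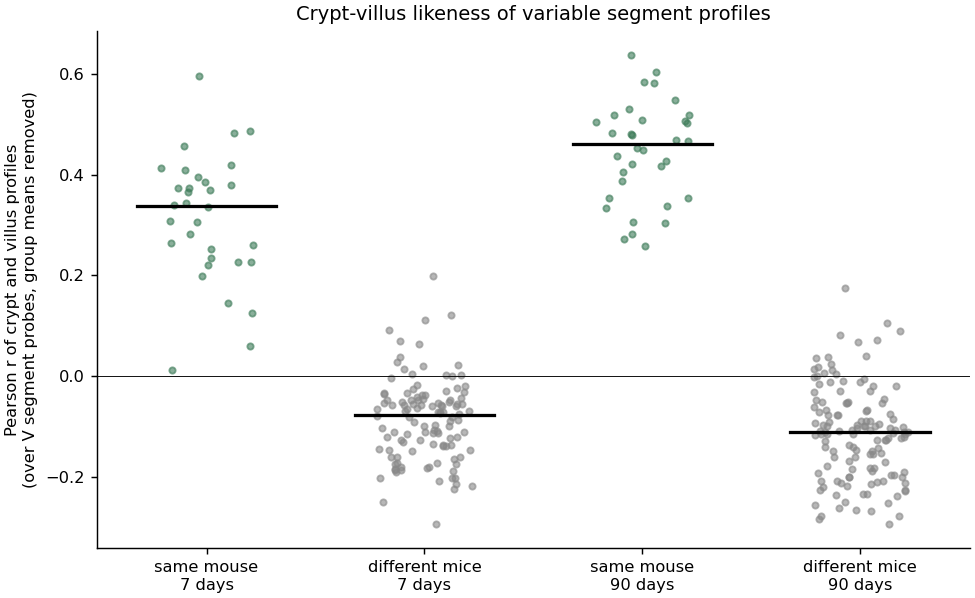
Correlation over the 183 V segment probes (y axis, Pearson's r of log2 CPM less the group mean) between a crypt and a villus library, for pairs from 1 mouse and pairs from different mice of the same dose and time. Points are pairs and bars are medians, with 7 and 90 days side by side. Pairs from 1 mouse have medians of 0.34 and 0.46 at these times, and pairs from different mice a median of -0.10 over both.

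The sharing was seen at both times, at every dose and in both chains. The median within a mouse was 0.34 over 32 mice at 7 days and 0.46 over 34 mice at 90 days. At 90 days the own mouse was the best match in 34 of 34 crypts and 34 of 34 villi. By dose the median ran from 0.34 over the 9 untreated mice to 0.46 over 9 mice at 20 ppm. Heavy chain members alone gave 0.37 and kappa members alone 0.41, each with the own mouse first for 61 of 66 crypts. T cell receptor segments, which are sparse, gave 0.01 and put the own mouse first for 17 of 66 crypts. The 9369 other probes with a median above 10 CPM gave 0.15, against -0.04 between mice, and 41 of 66. The same member led the crypt and the villus in 24 of 66 mice (36.4%), against 42 of 248 pairs of different mice (16.9%). At 180 ppm these shares were alike, with 4 of 9 mice (44.4%) and 14 of 32 pairs (43.8%).

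The match held when each library was set against all 136 others, both compartments and all doses included. The other library of the same mouse was the nearest in 112 of 132 cases (84.8%) and among the nearest 3 in 121. The count was 62 of 68 at 90 days and 50 of 64 at 7 days, and 112 of 128 without mice 48 and 49. Heavy chain members alone placed the mate first in 82 cases and kappa members alone in 85. Across the 9369 other probes the mate came first in 2 cases, and the nearest library was of the same compartment in 125 of 132, whereas for V segments it was of the same compartment in 13 of 132.

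The 4 libraries labelled as mice 48 and 49 did not follow this pattern. The 2 crypts correlated with each other at 0.47 and the 2 villi at 0.41, each the nearest of all libraries, while the labelled mates correlated at 0.03 for mouse 48 and 0.10 for mouse 49. Ighv1-47 shows it in a single segment. In the crypts of untreated mice 46 to 50 after 7 days it stood at 2.90, 5.04, 231, 456 and 3.95 CPM, and in their villi at 0, 4.11, 25.7, 1.25 and 2.47 CPM. Only the crypts labelled 48 and 49 were high. A probe of Igkv19-93 had 450 and 1090 CPM in those crypts, against 77.2 to 109 CPM in the other 3. Nothing was relabelled, and whether libraries of these mice were exchanged was not tested, so these values stand under the labels as given.

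A test of the mouse itself gave the same picture probe by probe. In a model with the groups and the mouse nested within them, limma called 128 of 182 members (70.3%) different between mice at an adjusted p below 0.1, against 7.3% of all 26243 probes. edgeR's quasi-likelihood test called 132 members (72.5%) against 11.2%, and 121 were called by both. In that model edgeR gave all probes a common spread around the trend, with a median of 9.93 over the members where their own estimate was 17.1, so its single p-values are too small and limma's are given. All 37 members with a median above 50 CPM were called by both tools. Between 10 and 50 CPM edgeR called 45 and limma 42 of 45, and at or below 1 CPM 13 and 19 of 59. Igkv3-4, Ighv1-42 and Igkv14-100, named for the smallest p in edgeR, had adjusted p of 2.1e-08, 4.7e-10 and 0.00069 in limma. Igkv12-41 had a smaller one in limma, 1.5e-12. Constant regions were called at 12 of 15 probes by edgeR and 11 by limma, B cell genes at 19 and 21 of 23, plasma cell genes at 6 and 4 of 17, genes of the IgA pathway at 10 and 8 of 35, and T cell receptor segments at 2 and 3 of 88.

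The 10 most counted members each correlated between crypt and villus over the 66 mice, with group means removed. Ighv1-31 and Ighv1-42 had r = 0.68 (adjusted permutation p = 3.3e-05), Igkv6-23 had 0.65 and Igkv1-117 had 0.63. Igkv8-30 had r = 0.55 (adjusted permutation p = 4e-05), and the lowest was Ighv1-80 with 0.40 (adjusted permutation p = 0.0044). Spearman's rho was 0.30 to 0.67, lowest for Igkv3-12 (adjusted permutation p = 0.032). The threshold for these correlations was an adjusted p of 0.05. Each p came from 100000 rearrangements of mice within dose and time, two-sided, and the smallest unadjusted value these allow is 1e-05. Leaving out the 2 mice farthest from the median of the crypt values left r at 0.32 to 0.65 with Igkv3-12 at 0.32 (adjusted permutation p = 0.039). A mouse that is extreme only in the villus can stay in under this choice. For Igkv6-23 that was so for mouse 164, whose villus lay at -3.98 in log2 CPM less the group mean. Taken apart, the 32 mice of 7 days gave r of 0.34 to 0.68. There Igkv3-12, Ighv1-18 and Ighv1-80 did not pass (adjusted permutation p of 0.093, 0.097 and 0.097), nor did they by Spearman's rho. The 34 mice of 90 days gave r of 0.45 to 0.74, with a largest adjusted permutation p of 0.027. By Spearman's rho Igkv3-12 did not pass at 90 days either (adjusted permutation p = 0.13). Over all 183 members the median r was 0.39 and 175 were above 0, and over the other 9369 probes it was 0.13.

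**Figure D2:**
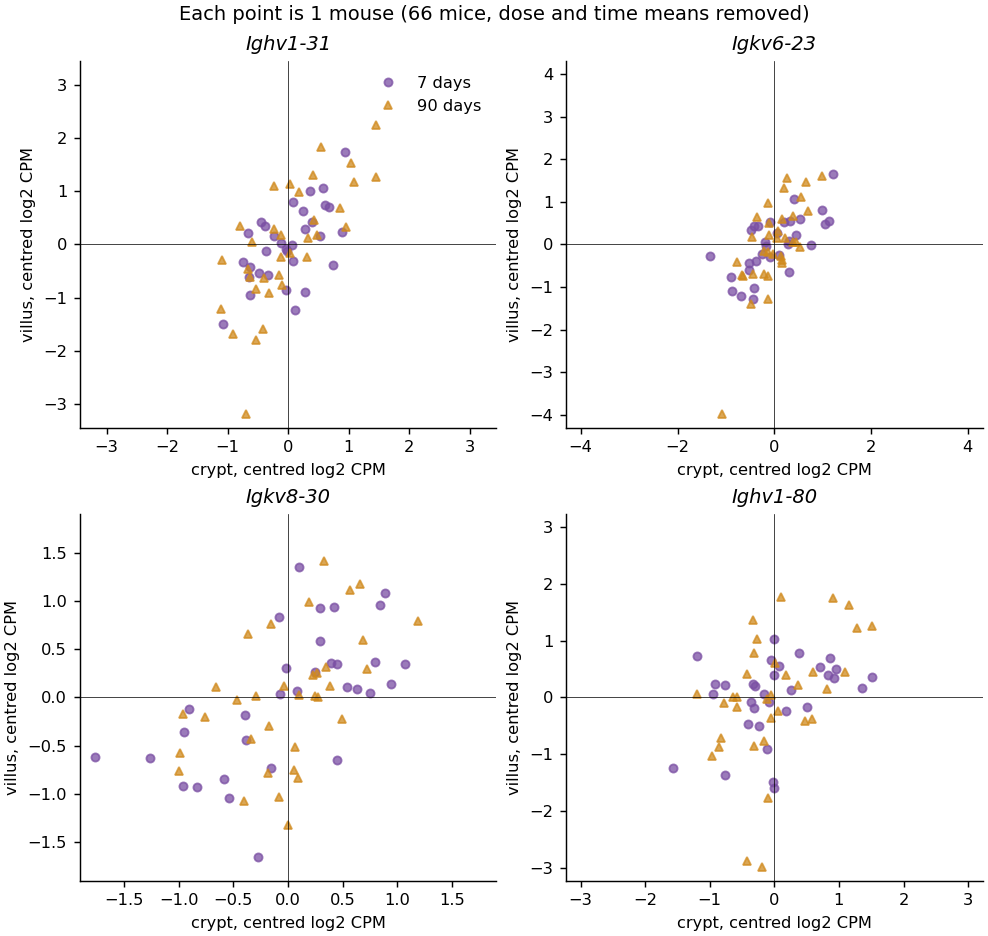
Crypt (x axis) against villus (y axis) level of 4 members over the 66 mice with both compartments, in log2 CPM less the group mean; circles are mice after 7 days and triangles after 90 days. Ighv1-31, Igkv6-23 and Igkv8-30 follow the diagonal with r of 0.68, 0.65 and 0.55, Ighv1-80 less so with 0.40.

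**Figure D3:**
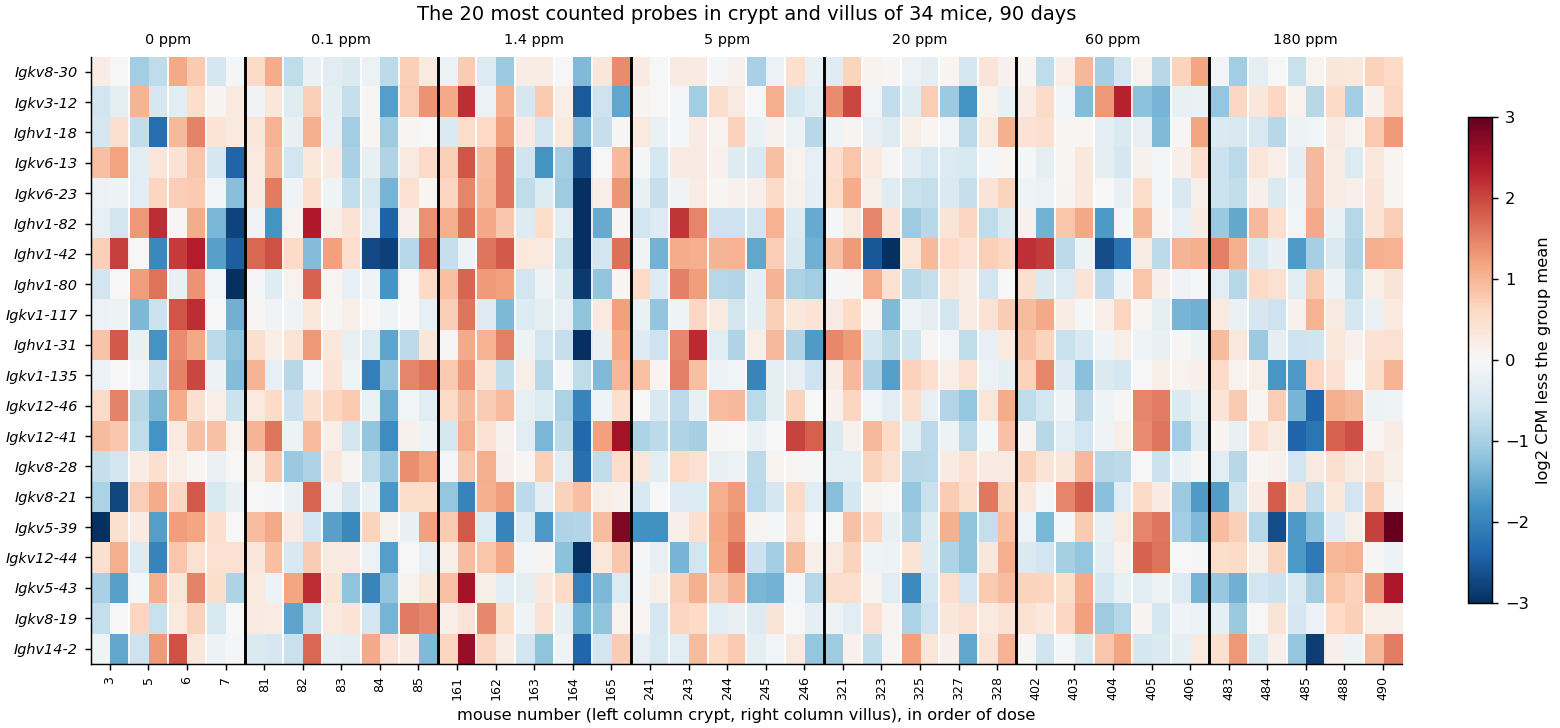
Level of the 20 most counted V segment probes (rows) in the 34 mice with both compartments at 90 days, as log2 CPM less the group mean, with the crypt in the left and the villus in the right column of each mouse and the colour scale ending at -3 and 3. Neighbouring columns of a mouse often have the same colour, and the villus of mouse 164 is low for most probes.

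Members also moved together across libraries, most of all where their sequences were close. Among the 82 members with a median above 10 CPM, the correlation over the 71 crypt and 66 villus libraries, group means removed, had a median of 0.68 for 7 pairs of probes of the same symbol and of 0.55 for 20 pairs of segments with at least 95% identity. It was 0.23 for 59 pairs at 90% to 95%, 0.16 for 219 pairs at 80% to 90% and 0.13 for 1337 pairs below 80%. Pairs of a heavy and a light segment gave 0.15 over 1679 pairs and at most 0.57, for Igkv4-86 with Ighv14-2. The closest pairs of all were those printed above: Igkv12-44 with Igkv12-46 at 0.91, Ighv1-80 with Ighv1-82 at 0.87 and Igkv6-13 with Igkv6-23 at 0.81, joined by Igkv8-19 with Igkv8-28 at 0.82. The member most like Ighv1-18 was Ighv1-22 (r = 0.75), that most like Ighv1-42 was Ighv1-31 (0.63), that most like Igkv8-30 was Igkv8-28 (0.50) and that most like Igkv3-12 was Igkv3-4 (0.60), over the same libraries. Cross-hybridisation and shared reads between such segments were not tested.

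A few sparse members had a large part of their signal in 1 library. Igkv8-34 had 42.3% of its summed CPM in the crypt of mouse 164 (1.4 ppm, 90 days), where it stood at 60.6 CPM, against 5.56 CPM in the villus of that mouse and at most 9.35 CPM in any other library. Igkv4-58 had 40.3% in the villus of mouse 206 (1.4 ppm, 7 days), at 42.4 CPM, with 1.44 CPM in its crypt. Ighv15-2 had 36.4% in the crypt of mouse 402 (60 ppm, 90 days), at 18.2 CPM, with 4.15 CPM in its villus. Igkv5-37 had 33.6% in the villus of mouse 369 (20 ppm, 7 days), at 22.1 CPM, and was at 0 in its crypt. Of the 183 members, 17 (9.29%) had their 2 highest libraries in 1 mouse.

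The summed level of the members was lowest at the highest dose after 7 days. In crypts at 7 days the untreated group had a median of 10884 CPM (lowest 8059, highest 14209) and the group at 180 ppm 4411 CPM (lowest 3673, highest 5608), without overlap, also with the untreated crypts of mice 48 and 49 left out (highest then 11942), and the group at 60 ppm had 5290 CPM. In villi at 7 days the medians were 9629 CPM untreated and 6060 CPM at 180 ppm, and these groups overlapped. After 90 days crypts had 7744 CPM untreated, 5474 CPM at 60 ppm and 5862 CPM at 180 ppm. Villi had 5918 CPM untreated, 9236 CPM at 5 ppm and 7593 CPM at 180 ppm. The lowest library of all was the villus of mouse 164, with 1370 CPM and 3940 V segment counts. It also had 109611 CPM of enterocyte markers and 551 CPM of 12 plasma cell genes, and the crypt of that mouse had 6796 CPM of V segments. The highest was the villus of mouse 209 (1.4 ppm, 7 days) with 17061 CPM, where the B cell list stood at 481 CPM.

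**Figure D4:**
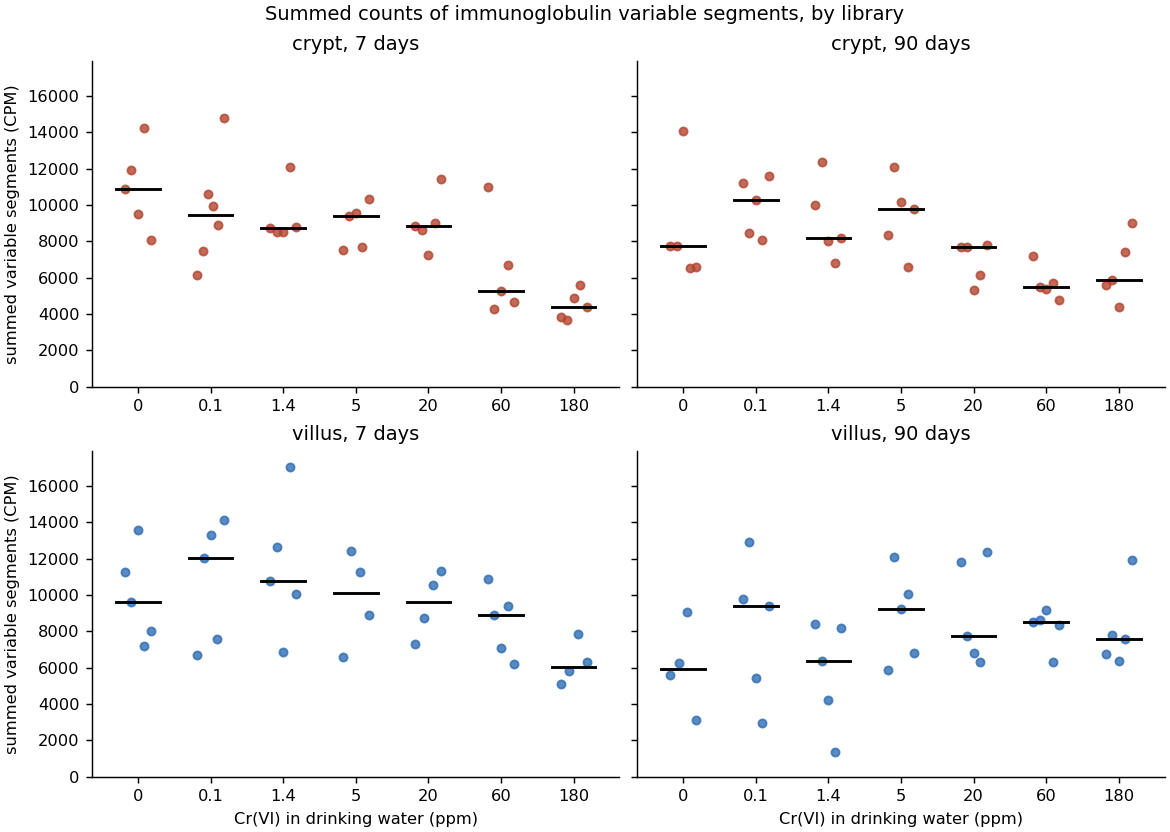
Summed level of the 183 V segment probes (y axis, CPM) by Cr(VI) in drinking water (x axis, ppm) in crypts and villi after 7 and 90 days; points are libraries and bars are group medians. Crypts after 7 days have a median of 10884 CPM untreated and 4411 CPM at 180 ppm, and villi after 90 days 5918 and 7593 CPM.

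The question put to each member was whether it differed from untreated mice at each dose, and whether it moved with the rank of the dose. In crypts after 7 days, 26 of 182 members (14.3%) were lower at 180 ppm and 10 at 60 ppm, with 0 higher at either dose, against 4.13% and 2.14% of all probes called in either direction. The median log2 difference of the members was -1.09 at 180 ppm and -0.62 at 60 ppm. Summed over the 6 doses there were 40 calls, all lower, where 1.09% of all probe and dose combinations were called. The dose trend called 43 members lower (23.6%) and 0 higher, against 9.47% of all probes in either direction and 5.78% lower. The median slope of the members was -0.17 log2 per dose step, and 162 of 182 slopes were below 0, against a median of -0.01 over all probes. The 43 were 19 of 90 heavy chain, 23 of 89 kappa and 1 of 3 lambda probes. limma, on log2 CPM, called 28 lower and 0 higher, 26 of them shared, against 7.48% of all probes. Without mice 48 and 49 the trend called 26 and the dose contrasts 14, and without the B cell-rich libraries 13 and 15, with the median slope again -0.17. The matching shares of all probes are not given, so whether the members still exceeded them cannot be read from these counts.

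Igkv8-30 showed the change most plainly. Its crypts after 7 days had 282, 645 and 884 CPM (lowest, median and highest) untreated and 91.1, 118 and 131 CPM at 180 ppm. The groups did not overlap, and the log2 difference was -2.43 ± 0.43 (SE; edgeR adjusted p = 2.1e-05), -2.03 without mice 48 and 49 (edgeR adjusted p = 0.0046) and -2.41 without the B cell-rich libraries (edgeR adjusted p = 0.0017). The fall was not stepwise in every group, since the medians were 373 CPM at 0.1 ppm and 382 CPM at 60 ppm. Its trend was -0.25 ± 0.06 per dose step (edgeR adjusted p = 0.00053). Ighv5-15 had 80.4, 162 and 211 CPM untreated and 14.7, 33.6 and 77.3 CPM at 180 ppm. The log2 difference of -2.14 ± 0.46 (edgeR adjusted p = 0.00091) did not pass without the B cell-rich libraries (-1.85, edgeR adjusted p = 0.11), and its trend of -0.32 ± 0.06 had the smallest adjusted p of the members, 3.4e-05 in edgeR. Ighv3-6 had 51.4, 137.4 and 209 CPM untreated and 13.7, 21.8 and 42.5 CPM at 180 ppm, again without overlap, a difference of -2.38 ± 0.56 (edgeR adjusted p = 0.0029). Igkv8-19 differed by -1.97 ± 0.43 at 180 ppm (edgeR adjusted p = 0.0011) but by -1.16 without mice 48 and 49, where it did not pass (edgeR adjusted p = 0.32).

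Calls at the low doses in these crypts rested on the 2 untreated crypts labelled 48 and 49. A probe of Ighv1-47 was called lower at 0.1, 1.4, 20, 60 and 180 ppm, with log2 differences of -4.53, -4.06, -5.04, -4.81 and -4.01, and Igkv19-93 at 0.1, 60 and 180 ppm. Without mice 48 and 49 the Ighv1-47 differences were between -0.06 and 0.99, with the sign turned at 4 of the 5 doses, and none passed in edgeR. No member was then called at 0.1 to 20 ppm, 3 were at 60 ppm and 11 at 180 ppm (edgeR), where the share of all probes called was also lower, at 0.603% and 1.62%.

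Other genes of the antibody system were measured in the same crypts. Of 15 probes for 13 constant regions, 5 fell with dose and 0 rose. Igkc, the kappa constant region, had a slope of -0.17 ± 0.04 per dose step (edgeR adjusted p = 0.00017), Jchain -0.17 ± 0.05 (edgeR adjusted p = 0.0077) and Pigr -0.16 ± 0.04 (edgeR adjusted p = 0.0038). The 2 probes of Igha, the IgA heavy chain, had -0.24 ± 0.04 (edgeR adjusted p = 1.1e-05) and -0.15 (edgeR adjusted p = 0.16). The summed constant regions had a group median of 9314 CPM untreated and 3904 CPM at 180 ppm. Of 36 probes for the ligands, receptors and transport of IgA, 3 fell, of 17 plasma cell probes 1 rose and 1 fell, of 23 B cell probes none passed (edgeR), and of 14 T cell probes 7 fell. Among 9 enterocyte probes 5 fell, and among 9 macrophage probes 4. The slopes without mice 48 and 49 were -0.16 for Igkc, -0.17 for Jchain, -0.15 for Pigr and -0.21 for the first Igha probe, all passing (largest edgeR adjusted p = 0.038), and 4 constant region, 3 IgA pathway, 6 T cell, 5 enterocyte and 1 macrophage probes fell. The part of cell type shares in the V segment trend was not tested.

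In villi after 7 days the direction was the same and fewer members passed, at a share near that of all probes called in either direction. The trend called 27 members lower (14.8%) and 0 higher, against 14% of all probes in either direction and 8.19% lower, with a median slope of -0.11. limma called 22 lower and 1 higher, 18 of them shared, against 14.5% of all probes. At 180 ppm 10 members (5.49%) were lower, where 5.97% of all probes were called. The 6 doses gave 24 calls, 9 higher and 15 lower, against 2.84%. Without the B cell-rich libraries the trend called 13, and without mice 48 and 49 it called 21 and the contrasts 13. Igkv8-28 had 128, 203 and 436 CPM untreated and 39.5, 57.9 and 91.5 CPM at 180 ppm, without overlap. Its trend was -0.28 ± 0.06 (edgeR adjusted p = 0.00015) and its difference at 180 ppm -1.95 (edgeR adjusted p = 0.0018), which did not pass without the third mouse of every dose and time (-1.36, edgeR adjusted p = 0.13). Igkv8-30 had 225, 417 and 607 CPM untreated and 30.2, 108 and 248 CPM at 180 ppm (-1.87, edgeR adjusted p = 0.0055), a call lost without the first mice (-1.52, edgeR adjusted p = 0.12). Ighv1-5, a sparse segment, had 5.31, 10.1 and 42.3 CPM untreated and 0, 1.0 and 9.55 CPM at 180 ppm, with a trend of -0.53 ± 0.13 (edgeR adjusted p = 0.0017).

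Igkv14-126 shows how 1 mouse can carry a call. Its villi of untreated mice 46 to 50 after 7 days had 280, 5.05, 20.4, 0 and 28.1 CPM, and the crypt of mouse 46 had 84.8 CPM. The trend of -0.64 ± 0.16 (edgeR adjusted p = 0.0022) did not pass in limma, in which the adjusted p was 0.11, nor when the first mouse of each dose and time was left out, mouse 46 among them (-0.34, edgeR adjusted p = 0.22). Constant regions fell at 4 of 15 probes in these villi and rose at 0, with Igkc at -0.14 per step (edgeR adjusted p = 0.0063) and Pigr at -0.19 (edgeR adjusted p = 0.0012). Of the IgA pathway 5 of 36 probes fell, of the plasma cell list 2 of 17, and of the T cell list 7 of 14. These counts without mice 48 and 49 were 4, 5, 1 and 6, and Igkc (edgeR adjusted p = 0.015) and Pigr (edgeR adjusted p = 0.0025) still passed.

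After 90 days the crypts again had more members lower than higher in edgeR, at a share in either direction near that of all probes. The trend called 31 lower and 3 higher of 182 (18.7% in either direction), against 18.6% of all probes and 7.86% lower. The median slope was -0.07, and limma called 10 lower, all shared, against 11.4% of all probes. The dose contrasts gave 26 calls, 7 higher and 19 lower, against 3.59%. Of these 21 were at 60 ppm (11.5% of the members), 5 of them higher and 16 lower, where 14.5% of all probes were called. Scaling with DESeq2 size factors in place of TMM moved the median of all probes by -0.20 at 60 ppm and -0.10 at 180 ppm and gave 7 higher and 31 lower. limma gave 5 calls in all. Ighv1-59 had 69.2, 84.3 and 242 CPM in untreated crypts, 9.93, 35.5 and 39.8 CPM at 60 ppm and 30.1, 46.4 and 69.5 CPM at 180 ppm. It fell by 1.54 ± 0.40 on the log2 scale at 60 ppm (edgeR adjusted p = 0.0035), with a trend of -0.22 ± 0.05 (edgeR adjusted p = 0.00064). Ighv14-2 had a trend of -0.32 ± 0.07 (edgeR adjusted p = 0.00072). Igkc did not move with it, with a slope of 0.00 (edgeR adjusted p = 1.0), and of 15 constant region probes 2 fell.

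Igkv8-18 was high in some treated mice and nearly absent in untreated ones. It was at 0, 0, 3.33, 0 and 0 CPM in the untreated crypts after 90 days and at 24.4, 66.2, 78.6, 31.6 and 0 CPM at 5 ppm, a log2 difference of 5.07 ± 0.82 (edgeR adjusted p = 9.0e-05), a size that depends on the prior count. The villi of the same 5 mice had 7.04, 99.8, 30.2, 23.6 and 2.82 CPM. Untreated villi after 90 days held 0 to 8.75 CPM, so 3 of the 4 mice that were high in the crypt were also above the untreated range in the villus. At 20 ppm the difference was 4.11 ± 0.86 (edgeR adjusted p = 0.0067). Neither call passed in limma (adjusted p of 0.47 at 5 and 0.13 at 20 ppm) or with edgeR's older dispersion, and that at 5 ppm did not pass in DESeq2 (adjusted p = 0.25).

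In villi after 90 days more members were called higher than lower, at a share no larger than that of all probes. The trend called 28 members higher and 3 lower of 182, against 26.3% of all probes in either direction and 17% higher. limma called 31 higher and 2 lower, 21 shared, against 28.4% of all probes in either direction. The median slope was 0.10 over the members and 0.04 over all probes. Of the 28, 8 were heavy chain and 20 kappa probes. The dose contrasts gave 88 calls, 76 higher and 12 lower, against 9.16% of all combinations. Part of this depended on the scaling, since size factors moved the median of all probes by -0.15 (5 ppm), -0.27 (20 ppm) and -0.18 (60 ppm) and gave 47 higher and 14 lower. The untreated group was 4 libraries with totals of 1667014 to 2678299 counts, in 1 of which, the villus of mouse 7, 10 pancreatic acinar genes summed to 53646 CPM. The part of those genes was not tested. Leaving out the first or the second mouse of every dose and time, untreated and treated alike, gave 46 and 53 dose calls, and leaving out the fourth gave 20 trends. A trend over the 6 treated doses alone, chosen after seeing the data, called 16 higher and 5 lower, against 21.9% of all probes.

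Igkv8-28, which fell with dose in villi after 7 days, rose with it after 90 days. It had 81.9, 122 and 169 CPM untreated, 228, 278 and 396 CPM at 5 ppm and 170, 344 and 368 CPM at 180 ppm, and neither treated group overlapped the untreated one (trend 0.28, edgeR adjusted p = 2.1e-05). Igkv8-30 had 178, 300 and 523 CPM untreated and 357, 789 and 1110 CPM at 180 ppm, 1.5 ± 0.45 higher on the log2 scale (edgeR adjusted p = 0.016). A probe of Igkv15-103 had 7.10, 0, 4.77 and 10.1 CPM in the 4 untreated villi and 555, 50.8, 113, 60.2 and 117 CPM in the 5 villi at 20 ppm, 5.23 ± 0.97 higher on the log2 scale (edgeR adjusted p = 2.2e-05). The crypts of the untreated mice held 15.8 to 138 CPM of it. Igkc rose with dose in these villi (0.20 ± 0.04, edgeR adjusted p = 1.1e-05), as did Jchain (0.28 ± 0.05, edgeR adjusted p = 2.0e-06), while Pigr fell (-0.17 ± 0.04, edgeR adjusted p = 0.00083). Of 15 constant region probes 2 rose, of the IgA pathway 4 rose and 6 fell, of the plasma cell list 3 rose and 1 fell, and of the T cell list 8 of 14 fell. Recombination genes, represented by 2 probes, passed in none of the 4 trends (edgeR).

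Whether the trend differed between times or compartments was tested directly. In villi the trend was more positive after 90 than after 7 days for 36 members (19.8%) and more negative for 0. Of all probes 9.17% were called, 7.78% more positive and 1.39% more negative. Igkv8-28 differed by 0.56 ± 0.08 per dose step (edgeR adjusted p = 1.5e-06), Igkv8-19 by 0.43 ± 0.08 (edgeR adjusted p = 0.00042), and Igkv8-30 by 0.39 ± 0.08 (edgeR adjusted p = 0.0013). In crypts it was so for 2 members, against 0.975% of all probes. These were Igkv8-19 (0.33, edgeR adjusted p = 0.018) and Igkv8-28 (0.25, edgeR adjusted p = 0.095), named after their values were seen. Between compartments, 8 members (4.4%) had a lower trend in crypts than in villi after 90 days. The tests between compartments here ignore that crypt and villus come from the same mouse. Of all probes 2.14% were called, 1.87% lower and 0.269% higher in crypts. After 7 days edgeR called 0, with 4 at an unadjusted p below 0.05, against 0.205% of all probes, and DESeq2 called 2 and limma 0. The change of the compartment difference between the times was called for 0 members by edgeR, with 6 at an unadjusted p below 0.05, against 0.0948% of all probes, for 4 by DESeq2 and for 0 by limma.

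How many members the compartment separated depended on the model. After 7 days 29 of 182 members differed, 7 higher and 22 lower in crypts, where 35.7% of all probes differed, and with the mouse as a block 60 did, 9 higher and 51 lower, against 33% of all probes, which is the share of the members too. limma called 13, 6 higher and 7 lower, against 39.5%, and 29 with the block, 12 higher and 17 lower, against 41.7%. Without mice 48 and 49 there were 17, and without the B cell-rich libraries 8, 4 in each direction. After 90 days 20 of 182 differed, 15 higher and 5 lower, against 36.3% of all probes, and 36 with the block, 25 higher and 11 lower, against 34.2%. limma called 18 higher and 1 lower, against 36.9%, and 33 higher and 1 lower with the block, against 38.8%. The split moved with the processing, to 11 higher and 7 lower with size factors and 8 higher and 16 lower with depth as a covariate. Igkv11-125 was 1.07 ± 0.25 higher in crypts on the log2 scale after 7 days (edgeR adjusted p = 0.00026) and Ighv3-3 1.14 ± 0.32 higher (edgeR adjusted p = 0.0022), the latter not passing in DESeq2 (1.18, DESeq2 adjusted p = 0.12). The B cell list moved with them, with 18 of 23 probes higher in crypts after 7 days and 0 lower, and its part in these differences was not tested. After 90 days Igkv1-117 was 0.58 ± 0.18 lower in crypts (edgeR adjusted p = 0.0065), Igkv14-130 1.58 ± 0.47 higher (edgeR adjusted p = 0.0045) and Igkv1-135 0.73 ± 0.23 higher (edgeR adjusted p = 0.0074), the last 2 not passing with depth as a covariate. Igkv1-117 did not pass when the third mouse of every dose and time was left out (-0.39, edgeR adjusted p = 0.11). The values of these single members come from fits without the mouse as a block, which ignore the pairing of crypt and villus.

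A few segments stood much lower in the mice of 90 days than in the separate mice of 7 days. Igkv11-125 stood at 0 to 118 CPM with a median of 22.9 CPM in the 36 crypts after 7 days and at 0 to 20.2 CPM with a median of 1.18 CPM in the 35 crypts after 90 days. In villi its median went from 9.48 CPM to 0, and it was at 0 in 26 of 34 libraries after 90 days. The log2 difference was -3.18 ± 0.28 in crypts (edgeR adjusted p = 7.0e-19) and -3.27 ± 0.42 in villi (edgeR adjusted p = 4.0e-10). Ighv3-3 fell alongside it. Its crypt median was 16.0 CPM after 7 and 1.81 CPM after 90 days (-2.34), and its villus median 3.60 CPM and 0 (-2.51). Ighv2-9-1 had medians of 11.4 and 3.14 CPM in crypts and 15.6 and 2.73 CPM in villi. Over all libraries, group means removed, Igkv11-125 and Ighv3-3 correlated at 0.35. Igkv8-30 rose by 0.92 on the log2 scale in crypts, with medians of 281 and 473 CPM, and by 0.99 in villi, with medians of 309 and 611 CPM. All these values include the B cell-rich libraries, every one of them from 7 days, and values of these members without them are not given.

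**Figure D5:**
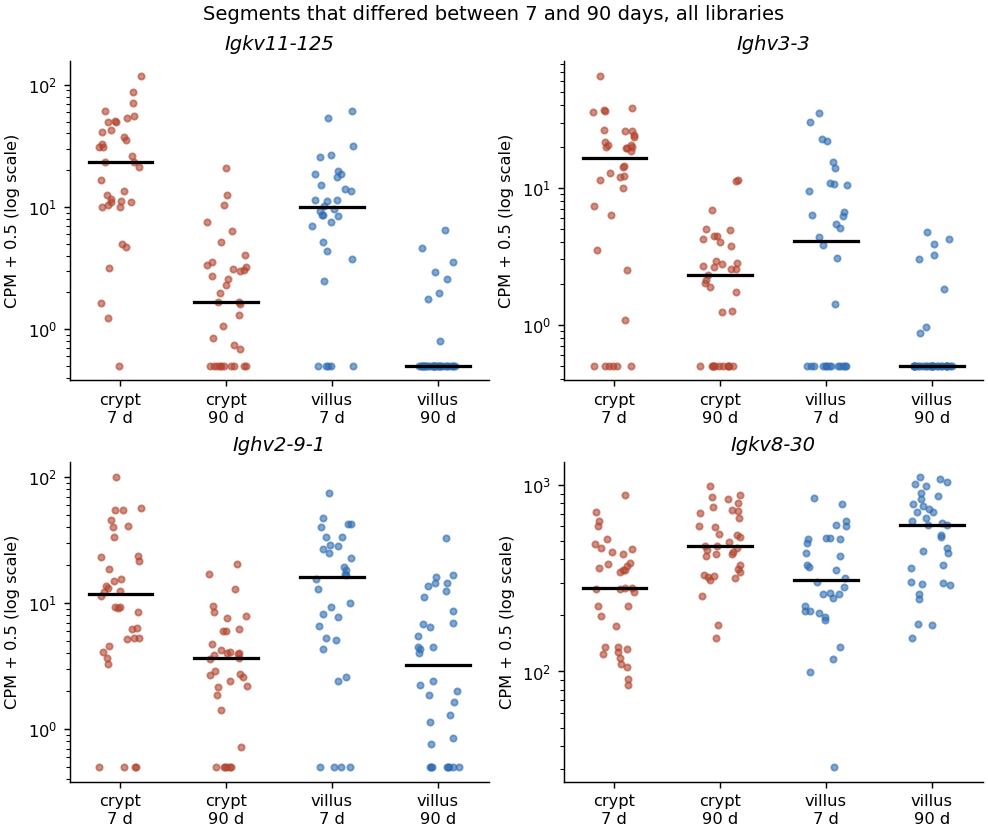
Level of 4 members (y axis, CPM plus 0.5 on a log scale) in crypts and villi after 7 and 90 days over all doses; points are libraries and bars are medians. Igkv11-125, Ighv3-3 and Ighv2-9-1 are lower after 90 days in both compartments and Igkv8-30 is higher.

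In all, 39 members differed between the times in crypts, 15 higher and 24 lower after 90 days, where 15.2% of all probes differed, and 43 in villi, 7 higher and 36 lower, against 11.9%. In villi 25 heavy chain probes were lower and 0 higher, while 6 kappa probes were higher and 11 lower. In crypts the heavy chain split was 1 higher and 15 lower and the kappa split 13 higher and 9 lower. With size factors the split in crypts was 9 higher and 34 lower, the median of all probes having moved by -0.10, and in limma it was 7 higher and 13 lower, against 10.4% of all probes. In villi limma called 8 higher and 35 lower, against 15.2%. The B cell list moved the same way, with 22 of 23 probes lower after 90 days in crypts and 12 in villi, as did Ighm, the IgM heavy chain (-3.14 ± 0.42 in crypts, edgeR adjusted p = 1.0e-09). Without the B cell-rich libraries 20 members differed in crypts, 8 higher and 12 lower, and 26 in villi, 9 higher and 17 lower. Igkc was higher after 90 days, by 0.77 in crypts and 0.50 in villi, and so was Jchain, by 0.94 and 0.77. The summed V segments stood at a median of 1.09 times the summed constant regions in crypts and 1.06 times in villi after 7 days, and at 0.80 and 0.84 times after 90 days.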

How the data were processed

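The deposited table holds raw counts per probe, which the authors extracted from single-end 50-base reads. The study left libraries of low depth or diversity out of its comparisons, and only 66 of the 71 mice have a villus library here. The study reports that each library it removed came from a different dose and time. The mice without a villus library are 8, 127, 287, 370 and 527, which also differ from each other in dose or time. The study does not name the removed libraries, so whether the missing villi are those was not tested. The submitters' processing notes name bcl2fastq 2.17.1.14 and Bowtie, and the genome build is not given in the sources used here. All columns were used. The labels name 1 mouse more than the study's methods count, and the labels were followed. The members and gene lists were chosen with earlier results of these data known. edgeR 4.0.16 (quasi-likelihood F-test, TMM scaling, filterByExpr, which kept 182 of the 183 members) was fitted once to the 28 groups, with Benjamini-Hochberg adjustment over all probes and an adjusted p below 0.1 as the threshold, after the false discovery rate of the study. Dose trends used the rank of the dose, 0 to 6. Errors are standard errors. For dose and time contrasts within a compartment, the p-values of the fit to the 28 groups measure the spread between separate mice. In its tests between compartments, crypt and villus libraries of the same mouse are treated as independent, so the pairing is ignored. In the tests with the mouse in the model, the residual spread is that of crypt against villus within mice. Correlations used log2 CPM with a prior count of 2, less the group mean.

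Same-numbered crypt and villus libraries came from 1 mouse, as the study's methods state, and 66 of 66 such pairs correlated above 0 (0.01 to 0.64). The mouse was therefore also fitted as a block for the compartment differences. Tests of whether trends or time differences differed between compartments were not run with the block. Alternatives were DESeq2 1.42.0, size factors, other filters, edgeR's older dispersion, depth as a covariate and leaving out mice 48 and 49. Further runs each left out 1 mouse of every dose and time at once. Chosen after seeing the data were leaving out B cell-rich libraries, limma 3.58.1 and a trend over the treated doses. Averaged contrasts of edgeR cannot be estimated well where a group is at 0 in every library, which touched 28 to 66 of the 182 members, and limma counts are given for that reason. Named members were the 10 most counted, the 5 most concentrated in 1 library, the 3 with the smallest adjusted p in each trend, compartment, time and mouse test, up to 3 called per dose contrast, and the closest partners of leading segments. Those outside the rule are said to be so or are partners in a sequence comparison.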

Additional observations from a re-analysis of the deposited data

Results flagged for a closer look

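Within groups of 4 to 6 libraries, 7 of 56 tests (the summed V segment level and the leading share, each in 28 groups) found a library far from the others of its group, where chance gives about 1 in 20. The summed level was high in the crypt of untreated mouse 6 after 90 days, at 14076 CPM where the other 4 crypts held 6516 to 7745 CPM. It was also high in the crypt of mouse 209 (1.4 ppm, 7 days), at 12088 CPM against 8518 to 8773 CPM, and in the villus of mouse 490 (180 ppm, 90 days), at 11918 CPM against 6386 to 7786 CPM. It was low in the villus of mouse 405 (60 ppm, 90 days), at 6297 CPM against 8350 to 9146 CPM. The leading segment took 20.0% in the crypt of untreated mouse 46 after 7 days, against 6.03% to 9.84% in the other crypts of its group. It took 9.90% in the crypt of mouse 528 (180 ppm, 7 days), against 6.68% to 7.56%, and 13.8% in the villus of mouse 450 (60 ppm, 7 days), against 6.04% to 8.26%.

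Direct tests of the dose trend between the times or compartments called members in 3 comparisons. The trend was more positive after 90 than after 7 days for 36 members in villi, where 9.17% of all probes were called, 7.78% in that direction. In crypts it was so for 2 members, a share near the 0.975% of all probes. The trend was lower in crypts than in villi after 90 days for 8 members, against 2.14% of all probes, 1.87% in that direction (edgeR, adjusted p below 0.1). limma gave 38, 1 and 12 in those directions, with 1 member the other way in villi, DESeq2 gave 28, 3 and 14, and size factors 20, 1 and 4. The shares of all probes called under these alternatives are not given here. The villus comparison shares the untreated group of 90 days, whose 4 libraries were shallow.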

How the results depend on the processing

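The counts of members called moved with the processing, and the cause was not tested. Main counts stand in the report. Except where the report gives it, the share of all probes called under an alternative is not stated, so these counts cannot be set against it. edgeR's older dispersion gave 20 dose calls in crypts after 7 days, 8 in crypts after 90 days and 10 in villi after 7 days, and 21 trends in crypts after 90 days. Without mice 48 and 49, the 7-day counts were 14 dose calls and 26 trends in crypts, 13 dose calls in villi and 17 compartment differences. Without the B cell-rich libraries there were 15 dose calls and 13 trends in crypts after 7 days, 13 trends in villi after 7 days, 8 compartment differences after 7 days, and 20 and 26 differences between the times in crypts and villi. limma gave 24 dose calls and 28 trends in crypts after 7 days, 5 and 10 in crypts after 90 days, 13 compartment differences after 7 days and 20 time differences in crypts. Size factors gave 19 trends in villi after 90 days. The mouse as a replicate block gave 60 compartment differences after 7 days and 36 after 90 days, and limma with the block 34 after 90 days. Another set of 5 runs each left out 1 mouse of every dose and time at once. These runs gave 10 to 32 dose calls and 23 to 42 trends in crypts after 7 days, and 15 to 26 and 13 to 35 in crypts after 90 days. Villi had 9 to 28 and 14 to 32 after 7 days, and 46 to 74 and 20 to 31 after 90 days. In the order of mouse numbers, the lowest values came from leaving out the fourth mice, mouse 49 of the untreated among them, in crypts after 7 days, the first or the third in villi after 7 days, the third in crypts after 90 days (the first gave 15 dose calls too), and, in villi after 90 days, the first for dose calls and the fourth for trends. Compartment differences were then 13 to 21 and 12 to 17, time differences 25 to 34 in crypts and 28 to 46 in villi, and differences between mice 127 to 131. Of 381 values of named members in the trend, compartment, time and mouse tests, 369 stayed on their side of the threshold, 12 lost the call and 0 turned in direction. These members were named for the smallest adjusted p in those tests, so their stability does not extend to the other calls. Of all members called in the dose trends, limma also called 26 of 43 in crypts and 18 of 27 in villi after 7 days. After 90 days it also called 10 of 34 in crypts and 21 of 31 in villi. Calls of named members at single doses were less stable. Of 1552 values for 112 such calls, 1116 kept the call, 426 lost it and 10 turned. Ighv1-47 turned in crypts after 7 days without mice 48 and 49 (0.42, 0.89, 0.17 and 0.99 at 0.1, 1.4, 60 and 180 ppm). Igkv4-58 turned in villi at 1.4 ppm after 7 days without the B cell-rich libraries (-1.55) and without the first mice (-0.21 to 4.51 over the mice left out). Without the second mice Igkv4-63 turned in villi after 90 days (-2.93 to 1.68 at 5 ppm, -5.47 to 0.60 at 20 ppm and -3.58 to 1.99 at 180 ppm), as did a probe of Igkv19-93 (-0.55 to 4.36 at 180 ppm). Ighv3-3 after 90 days in villi is among the 12, without the fifth mice, where a group is at 0 in every library. The older dispersion was not run for the test between mice. Depth limits the sparse members, 59 of which had a median at or below 1 CPM.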
